A study of Mus musculus with 17 samples.

Results

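The insulin-like growth factor (IGF) pathway and the IGF binding proteins were followed in cultured adult mouse neural retinal progenitor cells (mNRPCs) through 10 genes, which were taken by their symbols from the deposited tables of 18836 genes. They are the ligand gene Igf1, the receptor genes Igf1r and Insr, the adaptor gene Irs2 and the binding protein genes Igfbp2, Igfbp3, Igfbp4, Igfbp5, Igfbp6 and Igfbp7. All 10 were found. In the libraries with bFGF, Igfbp3 was the main binding protein mRNA from day 1 to day 7. In the libraries without bFGF, Igfbp2 was the main one from day 3, and both receptor mRNAs were lower with bFGF on days 3 and 7. Igf1 itself was at or near 0 in every library.

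IGF1 and insulin act through a pair of related tyrosine kinase receptors, IGF1R and INSR. The activated receptors bind insulin receptor substrates such as IRS2, which recruit PI3 kinase, and AKT then restrains the FoxO transcription factors and promotes mTOR signalling. The IGF binding proteins are secreted, hold IGFs outside the cell and so set how much ligand reaches the receptor, and proteases such as HTRA1 and PAPPA cleave some of them. IGFs are known in the retina as survival and growth factors for progenitors, neurons and glia. The N2 and B27 supplements of the culture medium contain insulin, so an INSR ligand was present in every treatment.

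The mNRPCs came from the retinas of adult C57BL/6 mice and were propagated on Matrigel in N2/B27 medium with bFGF, a fibroblast growth factor, and CHIR99021, an inhibitor of the kinase GSK3. For the time course they were kept in basic medium alone (BM), with bFGF (B), with CHIR99021 (C) or with both (BC). Polyadenylated RNA was sequenced on days 1, 3, 5 and 7, which gives 16 libraries, and a day 0 library brings the number to 17. Each treatment and day is a single library of 1 progenitor line, and the doses are not given in the sample labels. The day 0 cells are described in the study both as cells in BM and as the state before treatment, and they enter no test here.

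The libraries were of even depth, with 17571973 to 19428744 expected counts. Of 10 retinal progenitor markers, Pax6, Six3, Sox2, Nes, Hes1 and Ccnd1 were above 4.6 FPKM (fragments per kilobase of transcript, scaled to the size of the library) in every library, whereas Rax and Six6 never passed 0.07. The summed level of astrocyte markers stayed at or below 0.42 FPKM, that of endothelial markers at or below 1.42 and that of retinal pigment epithelium markers at or below 2.05. The summed level of 9 pericyte, smooth muscle and fibroblast markers was 351 to 518 FPKM on day 7 without bFGF and 9.94 to 11.03 with bFGF. Most of it was Acta2, at 190 to 365 FPKM, and Pdgfrb, at 107 to 115 FPKM. The fibroblast markers Col1a1, at 25.9 to 45.2 FPKM without and 0.14 to 0.25 with bFGF on day 7, Col1a2, at 1.57 to 1.78 and 0.02 to 0.04, and Dcn, at 5.29 to 8.39 and 0.64 to 1.71, went the same way, as did Tagln, at 1.63 to 2.18 and 0.14 to 0.18. The mural cell marker Rgs5 and the fibroblast markers Lum and Thy1 did not pass 0.10 on that day. The summed microglia and macrophage markers went the other way, from 4.44 to 5.82 FPKM without bFGF to 62.0 to 81.1 with it on day 7, almost all of it Cd68, with Aif1, P2ry12, Itgam and Ptprc at or below 0.16 and Csf1r at or below 0.38 in every cultured library. On day 7 Cx3cr1 was at 0.08 FPKM without and 1.03 to 2.25 with bFGF, and Tmem119 at 1.79 to 1.87 and 0.03 to 0.08. The summed lens and ciliary epithelium markers were at 6.93 to 43.9 FPKM without and 0.63 to 1.25 with bFGF on day 7, where Crybb2 alone was at 4.14 to 40.6 and listed at 0. The summed Mueller glia markers were at 1392 to 1603 and 3494 to 3908 FPKM, mostly Vim, while Aqp4, at 1.44 to 1.53 and 0.02 to 0.03, and Apoe, at 104 to 173 and 50.2 to 65.8, were lower with bFGF. These marker levels moved with the bFGF differences below and their part in them was not tested. In bulk RNA, fewer cells of a type and less RNA per cell cannot be told apart.

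Expected counts were compared with edgeR over the 11272 genes whose mean FPKM reached 1, and calls were made at an adjusted p of 0.05. Each day's bFGF effect rests on B and BC against BM and C, with CHIR99021 as a common term. The spread behind every p is therefore the disagreement between these pairs of libraries, not the spread between cultures. Log2 fold changes are relative to the median gene (TMM scaling). Scaling by library totals alone, as FPKM does, moves the median gene with bFGF by -0.54 on day 7, -0.46 on day 5, -0.11 on day 3 and -0.04 on day 1. Of the 10 genes, 6 passed the filter (Igf1r, Insr, Irs2, Igfbp2, Igfbp3 and Igfbp6). Igfbp2 passed through its libraries without bFGF, since its mean with bFGF was 0.834 FPKM.

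**Figure D1:**
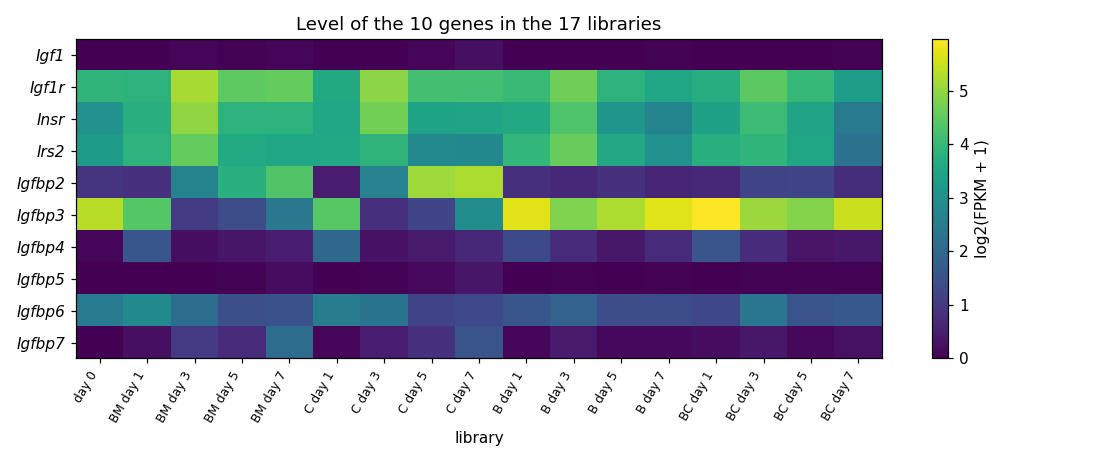
Level of each of the 10 genes (rows) in the 17 libraries (columns) as log2(FPKM + 1), from 0 (dark) upwards (bright). Igfbp3 is bright on day 0, on day 1 and in all B and BC libraries, Igfbp2 brightens in BM and C from day 3 to day 7, and Igf1 and Igfbp5 are dark throughout.

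With bFGF, 1 of the 6 tested members was higher (Igfbp3) and 1 lower (Igfbp6) on day 1, when 6.21% of all tested genes were called higher and 4.46% lower. On day 3, 1 was higher (Igfbp3) and 3 lower (Igf1r, Insr and Igfbp2), against 25.4% and 25.0% of all genes. On day 5, 2 were higher (Igfbp3 and Irs2) and 1 lower (Igfbp2), against 37.2% and 38.6%. On day 7, 2 were higher (Igfbp3 and Igfbp6) and 3 lower (Igf1r, Insr and Igfbp2), against 38.8% and 39.6%. Averaged over the 4 days, 2 were higher (Igfbp3 and Irs2) and 3 lower (Igf1r, Insr and Igfbp2), against 40.5% and 41.3%. The background is so broad from day 3 on that the number of members called says little, and the sizes below carry the description. Without TMM, the share of all calls that were higher with bFGF was 36.2% in place of 58.2% on day 1, 40.1% in place of 50.4% on day 3, 27.3% in place of 49.1% on day 5, 27.1% in place of 49.5% on day 7 and 29.4% in place of 49.5% averaged.

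The ligand mRNA was barely detected. Igf1, which encodes IGF1, was listed at 0 on day 0 and in all 4 libraries of day 1. In BM it was at 0.06, 0.03 and 0.08 FPKM on days 3, 5 and 7, and in C at 0.01, 0.08 and 0.18. In B and in BC it was at 0 on day 3, 0.01 on day 5 and 0.02 on day 7. The highest of these, C on day 7, rested on 24 expected counts, and the highest with bFGF on 3. The other ligand gene, Igf2, did not pass 0.25 FPKM in any library.

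Igf1r, the IGF1 receptor gene, was at 13.9 FPKM on day 0. In BM it was at 13.5, 35.4, 21.6 and 22.8 FPKM on days 1, 3, 5 and 7, and in C at 11.3, 29.4, 17.2 and 17.3. In B it was at 15.6, 24.4, 13.6 and 10.4 FPKM, and in BC at 12.1, 21.3, 14.8 and 9.15. The groups with and without bFGF overlapped on day 1 and were apart from day 3 on, with the lower levels in B and BC. Relative to the median gene, Igf1r fell with bFGF on day 3 (log2 fold change -0.39, SE 0.11, adjusted p = 0.00980) and on day 7 (-0.45, SE 0.11, adjusted p = 0.00220). On day 5 the value was 0.05 (SE 0.11, adjusted p = 0.711), and scaling by library totals turned it to -0.40 (adjusted p = 0.00517). The day 3 call was lost without the BM library of that day (-0.38, adjusted p = 0.0519). The value averaged over the days, -0.14 (SE 0.05, adjusted p = 0.0327), lost its call without BC day 1 (-0.13, adjusted p = 0.0573), BM day 5 (-0.14, adjusted p = 0.0509), B day 5 (-0.09, adjusted p = 0.0736), BM day 7 (-0.13, adjusted p = 0.0570) or B day 7 (-0.12, adjusted p = 0.0738).

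Insr, the insulin receptor gene, ran beside Igf1r at a lower level in every library, with 0.489 to 0.942 times the FPKM of Igf1r. It was at 7.11 FPKM on day 0, at 12.5, 30.7, 13.5 and 13.6 in BM and at 10.7, 24.8, 10.1 and 10.2 in C. In B it was at 11.4, 19.1, 7.75 and 5.45 FPKM, and in BC at 9.72, 16.01, 10.2 and 4.47. On day 7 the libraries with bFGF were all below those without, and on day 5 the groups overlapped. Insr fell with bFGF on day 3 (log2 fold change -0.56, SE 0.15, adjusted p = 0.00700) and on day 7 (-0.71, SE 0.15, adjusted p = 0.000834). The day 3 call was again lost without the BM library (-0.51, adjusted p = 0.0550). On day 5 the value was 0.08 (SE 0.15, adjusted p = 0.659), which was -0.37 by library totals (adjusted p = 0.0445) and 0.38 without the B library of that day (adjusted p = 0.00505) and -0.28 without the BC library (adjusted p = 0.0261).

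Irs2, the adaptor that links both receptors to PI3 kinase, was lower with CHIR99021 on every day. It was at 8.58 FPKM on day 0, at 13.6, 22.7, 11.5 and 10.6 in BM and at 14.6, 22.9, 11.1 and 7.06 in B. With CHIR99021 it was at 10.9, 13.7, 5.97 and 5.86 FPKM in C and at 12.3, 13.9, 10.4 and 3.83 in BC. Irs2 was lower with CHIR99021 in 8 of 8 pairs of the same day and bFGF state, and the fitted change was -0.59 (SE 0.09, adjusted p = 0.00179). In the additive model, with 1 bFGF effect for all days, it was -0.57 and was not called (adjusted p = 0.0978). The bFGF effect was called only on day 5 among the 4 days (0.82, SE 0.18, adjusted p = 0.00138), and that call was lost by library totals (0.38, adjusted p = 0.0892). The pairs of day 5 disagreed, with log2(FPKM + 1) differences of 0.71 for BC minus C and -0.04 for B minus BM. On day 7 the bFGF effect was -0.06 (SE 0.19, adjusted p = 0.795), which became -0.59 by library totals (adjusted p = 0.0147). The averaged bFGF value of 0.27 (SE 0.09, adjusted p = 0.0138) lost its call without BC day 1 (0.21, adjusted p = 0.0533), without C day 5 (0.22, adjusted p = 0.0512) and without C day 7 (0.23, adjusted p = 0.0506). By library totals it was -0.01.

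**Figure D2:**
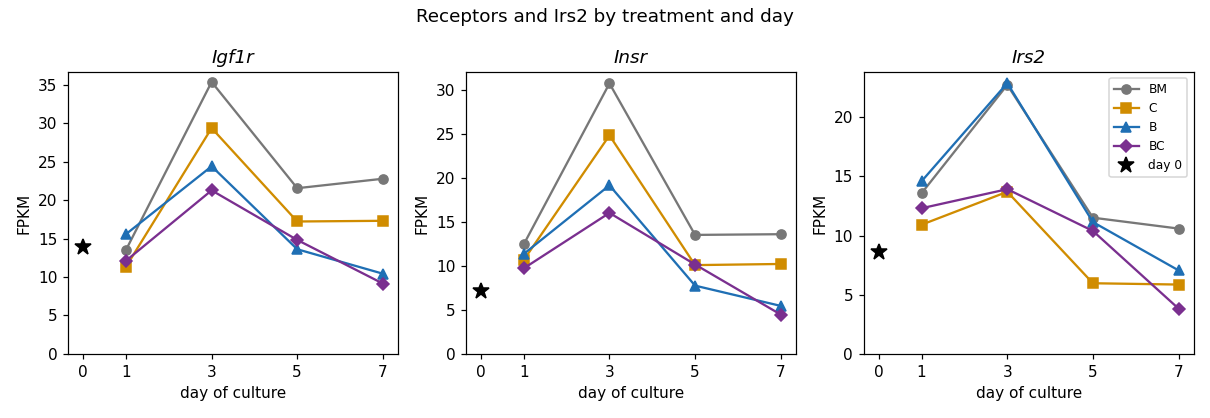
FPKM of Igf1r, Insr and Irs2 (vertical axes from 0) against the day of culture, with 1 line per treatment and a star for the day 0 library. All 3 genes are highest on day 3 in each of the 4 treatments, and Igf1r and Insr end lowest in B and BC on day 7.

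The 3 signalling genes shared a peak that the treatments did not remove. Igf1r, Insr and Irs2 were each highest on day 3 in BM, C, B and BC, as 9.54% of the 11272 tested genes were. For Irs2 the rise from day 1 to day 3 was smaller with CHIR99021. It went from 10.9 to 13.7 FPKM in C and from 12.3 to 13.9 in BC, against 13.6 to 22.7 in BM and 14.6 to 22.9 in B. On the log2(FPKM + 1) scale the day 3 level exceeded the mean of the other 3 days by 0.80 to 0.92 for Igf1r, 0.97 to 1.19 for Insr and 0.73 to 1.05 for Irs2. The median of all genes was -0.01 in both BM and C, 0.19 in B and 0.22 in BC. Igf1r and Insr have long transcripts, and over the 409 genes with transcripts of 8000 bases or more the median was 0.08 in both BM and C, 0.30 in B and 0.31 in BC, with 13.2% highest on day 3 in all treatments. The part of transcript length in the peak was not tested. This comparison was chosen after the values were seen and has no test.

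Igfbp3, which encodes the main carrier of IGFs in blood and a binding protein of many cultured cells, was the highest of the 6 binding protein mRNAs on day 0, at 39.2 FPKM. In B it was at 50.7, 27.3, 36.7 and 50.2 FPKM on days 1, 3, 5 and 7, and in BC at 61.8, 32.5, 28.3 and 44.2. In BM it was at 20.2, 1.07, 1.65 and 4.27 FPKM, and in C at 20.3, 0.77, 1.36 and 6.63. The groups did not overlap on any day. The libraries with bFGF stayed between 0.695 and 1.58 times the day 0 level, and those without went to 0.0273 times in BM and 0.0196 times in C on day 3.

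The fitted log2 fold change of Igfbp3 with bFGF was 1.55 on day 1 (SE 0.18, adjusted p = 0.000666) and 5.11 on day 3 (SE 0.25, adjusted p = 1.38e-07). It was 4.88 on day 5 (SE 0.24, adjusted p = 1.30e-08) and 3.66 on day 7 (SE 0.21, adjusted p = 1.55e-08). These are 2.93-fold, 34.5-fold, 29.5-fold and 12.6-fold higher levels. Igfbp3 was higher with bFGF in 8 of 8 pairs of libraries and kept its call on each day under every alternative run. CHIR99021 had no detectable effect on it (0.04, SE 0.10, adjusted p = 0.823).

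Igfbp2, which encodes a binding protein of the developing brain and eye, had the opposite bFGF difference to Igfbp3 from day 3. On day 0 it was at 0.90 FPKM. In BM it was at 0.81, 5.36, 12.8 and 19.4 FPKM on days 1, 3, 5 and 7, and in C at 0.36, 5.27, 32.99 and 36.5. In B it was at 0.75, 0.58, 0.81 and 0.54 FPKM, and in BC at 0.58, 1.33, 1.37 and 0.71. The day 1 libraries overlapped, and on days 3, 5 and 7 the libraries without bFGF were all above those with it.

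The fitted bFGF effect on Igfbp2 was 0.12 on day 1 (SE 0.62, adjusted p = 0.927), when its libraries held 9 to 18 counts. It was -2.36 on day 3 (SE 0.41, adjusted p = 0.000491), -3.82 on day 5 (SE 0.37, adjusted p = 1.49e-06) and -4.92 on day 7 (SE 0.41, adjusted p = 3.14e-07), or 5.15-fold, 14.2-fold and 30.2-fold lower. The 3 calls held under every alternative run. Igfbp2 passed the filter only through its libraries without bFGF. Those with bFGF held 11 to 32 counts, so the fold sizes rest on low counts on that side. Acta2 and Pdgfrb, given above, were also higher on day 7 without bFGF, while Rgs5, Lum and Thy1 of the same marker list were barely detected. Of all tested genes, 39.6% were called lower with bFGF on that day. A link of these markers to Igfbp2 was not tested. The transcript length that the authors list for Igfbp2 varied from 933 to 1342 bases between libraries, which moves its FPKM but not its count.

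**Figure D3:**
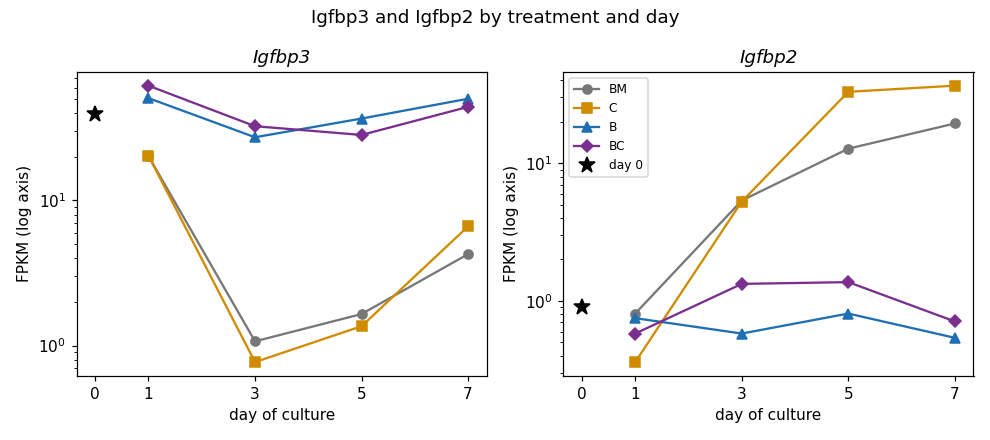
FPKM on log axes of Igfbp3 (left) and Igfbp2 (right) against the day of culture, with 1 line per treatment and a star for the day 0 library. For Igfbp3 the B and BC lines lie above the BM and C lines on every day, and for Igfbp2 the order is the opposite from day 3, with C above BM on days 5 and 7.

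The opposite bFGF differences of these 2 genes are the main contrast, so the 250 bases before their RefSeq start sites are shown in GRCm38.p6. Igfbp3 spans chr11:7206086-7215498 in the RefSeq gene table and its window, which lies inside that span, is chr11:7213924-7214173 on the minus strand. Igfbp2 spans chr1:72824480-72852474 and its window is chr1:72824230-72824479 on the plus strand. Capitals mark TATATA in Igfbp3 and GGGCGG in Igfbp2.
Igfbp3: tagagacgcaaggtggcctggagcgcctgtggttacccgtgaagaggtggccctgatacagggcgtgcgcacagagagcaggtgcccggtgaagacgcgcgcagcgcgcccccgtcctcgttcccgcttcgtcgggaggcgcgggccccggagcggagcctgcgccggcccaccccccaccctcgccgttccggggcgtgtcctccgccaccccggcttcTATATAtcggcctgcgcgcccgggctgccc
Igfbp2: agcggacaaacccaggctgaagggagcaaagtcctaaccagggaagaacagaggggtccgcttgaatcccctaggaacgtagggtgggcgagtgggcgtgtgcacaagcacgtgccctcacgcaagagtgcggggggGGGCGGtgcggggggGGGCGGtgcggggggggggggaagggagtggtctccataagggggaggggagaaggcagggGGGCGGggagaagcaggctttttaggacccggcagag

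These windows held different short sequences. Both strands were searched for the AP-1 motif TGANTCA, the ETS motif CCGGAAG, the TCF/LEF motif CTTTGAT, the FoxO motif TGTTTAC, the TATA motif TATATA and the GC box GGGCGG. The last 2 were added after the sequences were seen. The Igfbp3 window held TATATA, which starts 30 bases before the start site, and none of the others. TATATA is in 5.25% of the 32851 RefSeq windows of this length. The Igfbp2 window held GGGCGG 3 times, starting 113, 98 and 37 bases before the start, and GGGCGG is in 32.7% of all windows. RefSeq gives Igfbp2 a further start, whose window (chr1:72825137-72825386) held the AP-1 motif 39 bases before it. The AP-1, ETS, TCF/LEF and FoxO motifs are in 6.75%, 6.91%, 3.21% and 3.17% of all windows. Among the other members with a window, Igf1 held the AP-1 motif, Igf1r, Irs2 and Igfbp7 held GGGCGG, and Igfbp4, Igfbp5 and Igfbp6 held none of the 6. Insr has no window in the table. A match is a description of letters and no sign of binding.

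Igfbp5, which encodes another IGF binding protein and is also known in smooth muscle and connective tissue, lies beside Igfbp2 on chromosome 1 with 5590 bases between the RefSeq genes. It was close to 0 throughout. It did not pass 0.03 FPKM on day 0, on days 1 and 3 or in any library with bFGF. It was at 0.02 FPKM on day 5 and 0.15 on day 7 in BM, and at 0.11 and 0.29 in C. The C day 7 value rested on 32 expected counts. The libraries without bFGF were above those with it on day 7, and on day 5 BM lay within the range of B and BC.

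Igfbp7, which encodes a related protein of vessel walls and matrix with low affinity for IGFs, was listed at 0 on day 0. In BM it was at 0.19, 1.02, 0.65 and 3.32 FPKM on days 1, 3, 5 and 7, and in C at 0.05, 0.36, 0.80 and 1.93. In B it was at 0.05, 0.35, 0.10 and 0.10 FPKM, and in BC at 0.14, 0.30, 0.10 and 0.21. On days 5 and 7 both libraries without bFGF were above both with it. On day 3 BM was above both, while C, at 7.04 counts, was level with B, at 7.02. Igfbp7 was below the filter. A fit without the filter gave a bFGF effect of -0.93 on day 3 (SE 0.60, adjusted p = 0.289). It gave -2.33 on day 5 (SE 0.75, adjusted p = 0.0143) and -3.50 on day 7 (SE 0.61, adjusted p = 6.9e-05). The day 5 value compares 13.0 (BM) and 16.1 (C) counts with 2.01 (B) and 2.0 (BC). The day 7 value compares 66.8 (BM) and 39.3 (C) counts with 2.01 (B) and 4.09 (BC). The summed pericyte, smooth muscle and fibroblast markers were also higher in the day 7 libraries without bFGF, and a link to Igfbp7 was not tested.

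Igfbp6, which encodes a binding protein that prefers IGF2, declined without bFGF. It was at 4.54 FPKM on day 0, at 6.29, 3.48, 1.74 and 1.82 in BM and at 4.70, 3.95, 1.32 and 1.51 in C. In B it was at 2.05, 2.68, 1.67 and 1.66 FPKM, and in BC at 1.44, 4.10, 1.94 and 2.11. The groups were apart on day 1, with lower levels in B and BC, and overlapped on days 3, 5 and 7. The day 1 effect was -1.57 (SE 0.28, adjusted p = 0.00573), and it lost its call without BC day 1 (-1.35, adjusted p = 0.0955) or without BM day 1 (-1.34, adjusted p = 0.0729). The day 7 effect of 0.72 (SE 0.31, adjusted p = 0.0485) lay at the threshold. It was 0.18 by library totals (adjusted p = 0.591), and among the 16 fits without 1 library it ranged from 0.47 (without BC day 7, adjusted p = 0.297) to 0.95 and lost its call in 13 of the 16.

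Igfbp4, which encodes a binding protein that PAPPA cleaves, was higher in the 4 libraries of day 1 than in any other. It was at 0.07 FPKM on day 0, then at 2.01, 0.16, 0.29 and 0.37 in BM and at 3.01, 0.22, 0.34 and 0.60 in C. In B it was at 1.53, 0.64, 0.30 and 0.64 FPKM, and in BC at 1.97, 0.69, 0.25 and 0.30. Day 0 held 3 counts and day 1 held 60 to 117. Igfbp4 was below the filter, and the fit without it gave -2.48 for day 7 against day 1 without bFGF (SE 0.34, adjusted p = 1.0e-05) and -1.52 with bFGF (SE 0.35, adjusted p = 0.00129). On day 3 both libraries with bFGF were above both without it (1.89, SE 0.45, adjusted p = 0.00319). That value compares 24 (B) and 26 (BC) counts with 6 (BM) and 8 (C).

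Both the make-up of the binding protein mRNAs and their sum differed between libraries. Over the 6 genes the sum was 44.7 FPKM on day 0, and on day 7 it was 29.4 (BM), 47.5 (C), 53.2 (B) and 47.5 (BC). Its lowest value was 10.6 FPKM (C day 3) and its highest 65.9 (BC day 1). Igfbp3 made up 87.7% of the sum on day 0 and 83.4% to 94.4% in the 8 libraries with bFGF. Without bFGF its share was 68.5% in BM and 71.4% in C on day 1 and 3.68% to 14.5% afterwards. Igfbp2 then held 48.3% in BM and 49.8% in C on day 3, 74.6% and 89.4% on day 5, and 66.2% and 76.9% on day 7. Igfbp6 held 31.4% in BM and 37.3% in C on day 3, when the sum was lowest, at 11.1 and 10.6 FPKM. Igfbp7 reached 11.3% in BM on day 7.

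**Figure D4:**
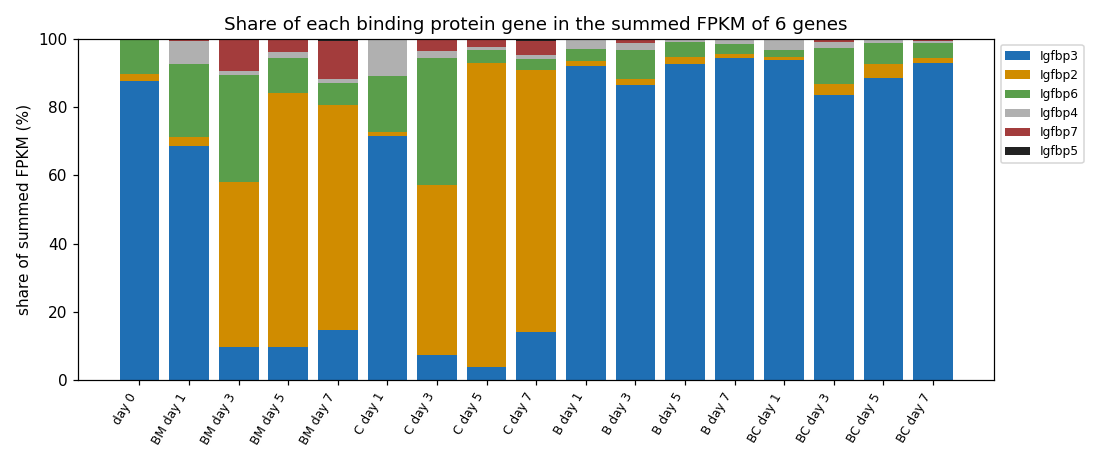
Share in percent of each of the 6 binding protein genes (colours) in their summed FPKM, with 1 bar per library. Igfbp3 fills most of the day 0, day 1, B and BC bars, and Igfbp2 is the largest part of the BM and C bars on days 3, 5 and 7.

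**Figure D5:**
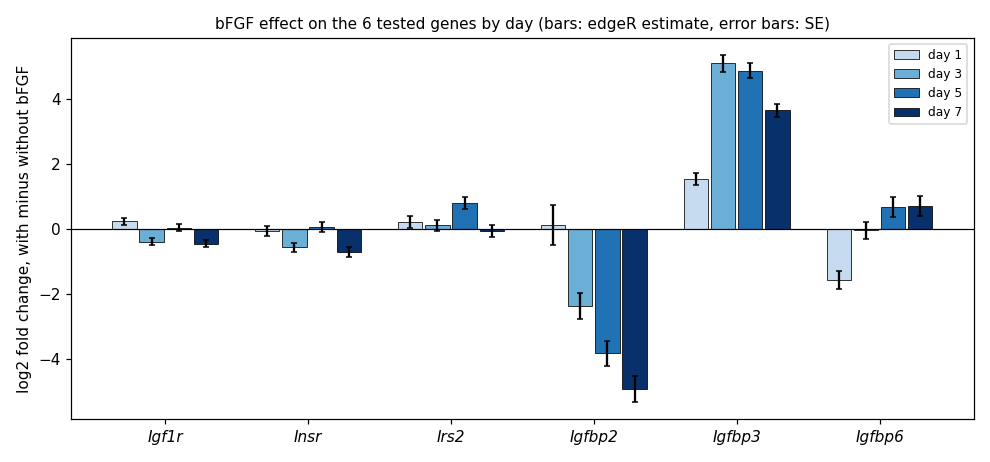
Fitted log2 fold change with minus without bFGF (vertical axis, edgeR, error bars are SE) of the 6 tested genes on days 1, 3, 5 and 7 (light to dark bars). Igfbp3 is above 0 on every day, up to 5.11 on day 3, Igfbp2 goes from 0.12 on day 1 to -4.92 on day 7, and the other 4 genes stay within 1.6 of 0.

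Averaged over days and bFGF, CHIR99021 called 1 of the 6 members higher (Igfbp2) and 2 lower (Igf1r and Irs2), against 9.72% and 9.79% of all tested genes. Igf1r fell by 0.23 on the log2 scale (SE 0.05, adjusted p = 0.0119) and was lower in 7 of 8 pairs. Its call was lost without day 1 (-0.20, adjusted p = 0.0674) and in an additive model, which assumes 1 bFGF effect for all days (-0.23, adjusted p = 0.473). Insr had a value of -0.21 (SE 0.07, adjusted p = 0.0621), lower in 7 of 8 pairs. It passed the threshold with DESeq2 (-0.22, adjusted p = 0.0356) and in the edgeR fit without the filter (-0.22, adjusted p = 0.0482). Without BC day 5 or without B day 5 the value was -0.29 in both. Igfbp2 rose by 0.70 (SE 0.20, adjusted p = 0.0293), with 5 of 8 pairs higher. That call rested on days 5 and 7, where C was above BM. It was lost with limma on log2(FPKM + 1) (0.34, adjusted p = 0.158) and on log2(FPKM + 0.1) (0.38, adjusted p = 0.256). The additive model also lost it (0.63, adjusted p = 0.815). Leaving out BM day 5 (0.49), C day 5 (0.49), BM day 7 (0.59) or C day 7 (0.58) lost the call as well. The interaction of bFGF and CHIR99021 was called for 0 of the 6 by edgeR, where 0.692% of all genes were called, and none of the 6 had an unadjusted p under 0.05. The values of the 6 ran from -0.20 (Igfbp2) to 0.41 (Igfbp6).

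Over time, the receptors and the binding proteins parted by bFGF. Without bFGF, day 7 against day 1 was higher for Igf1r (0.65, SE 0.11, adjusted p = 0.000217) and Igfbp2 (5.52, SE 0.41, adjusted p = 3.35e-07). It was lower for Igfbp3 (-1.92, SE 0.20, adjusted p = 5.40e-06), Igfbp6 (-1.74, SE 0.28, adjusted p = 0.000172) and Irs2 (-0.65, SE 0.18, adjusted p = 0.00815). These 2 of 6 higher and 3 of 6 lower stand against 32.3% and 31.5% of all genes. The Irs2 call was lost without C day 1 (-0.52, adjusted p = 0.0690) or without C day 7 (-0.54, adjusted p = 0.0692). With bFGF, none of the 6 was higher and 2 were lower, Insr (-0.65, SE 0.15, adjusted p = 0.00178) and Irs2 (-0.92, SE 0.19, adjusted p = 0.000647), against 35.8% and 39.5%. Igfbp3 with bFGF was at 0.19 (SE 0.18, adjusted p = 0.355) and Igfbp2 at 0.48 (SE 0.62, adjusted p = 0.494). Igf1r with bFGF was at -0.04, which was -0.47 by library totals (adjusted p = 0.00162). By library totals 28.2% of all calls with bFGF were higher, in place of 47.5%.

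The bFGF effect itself differed between day 7 and day 1 for 5 of the 6. It was higher on day 7 for Igfbp3 (by 2.11, SE 0.27, adjusted p = 2.92e-05) and Igfbp6 (by 2.30, SE 0.42, adjusted p = 0.000423). It was lower for Igfbp2 (-5.04, SE 0.80, adjusted p = 0.000157), Igf1r (-0.69, SE 0.15, adjusted p = 0.00169) and Insr (-0.66, SE 0.21, adjusted p = 0.0151). Of all genes 31.3% were called higher and 34.1% lower, and by library totals 25.7% of these calls were higher in place of 47.8%. The Insr call was lost without BM day 7 (-0.53, adjusted p = 0.0745). Irs2 was at -0.28 (SE 0.26, adjusted p = 0.360), and was called lower by library totals (-0.73, adjusted p = 0.0295).

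The wider pathway was counted from lists chosen with earlier results of these data known. Some of these lists also hold members. Of 23 IGF ligands, receptors, binding proteins and their partners, 9 were tested. On day 7 with bFGF 2 were higher and 5 lower, against 38.8% and 39.6% of all tested genes. Those higher were Igfbp3 and Igfbp6, and Igf1r, Insr and Igfbp2 were among those lower, all members given above. The median was -0.45, which is the value of Igf1r, beside -0.01 for all genes. Of the genes that are not members, Ide and Stc2 were called lower. Ide, which encodes the insulin-degrading enzyme, was at 31.2 to 33.6 FPKM without and 10.9 to 15.4 with bFGF on day 7 (-0.77, SE 0.13, adjusted p = 0.000106). Stc2, an inhibitor of the PAPPA proteases, was at 6.81 to 7.56 FPKM without and 1.55 to 2.40 with bFGF (-1.33, SE 0.19, adjusted p = 3.39e-05), while its average over the days was higher with bFGF (0.44, SE 0.09, adjusted p = 0.000564). Htra1 was the most abundant gene of the list, at 1001 to 1142 FPKM without and 761 to 990 with bFGF on day 7, and was not called (0.24, SE 0.15, adjusted p = 0.159). Igf2r, which takes IGF2 to lysosomes, was at 65.9 to 68.9 and 55.1 to 56.6 FPKM and was not called (0.27, SE 0.21, adjusted p = 0.247). Pappa, Pappa2, Igfbp1 and Igfbpl1 did not pass 0.14 FPKM in any library. Of the others below the filter, the protease gene Adam12 was at 1.30 to 1.64 FPKM without and 0.01 to 0.03 with bFGF on day 7, and Igfals, which encodes a partner of IGF complexes in blood, at 0.23 to 0.41 and 0 to 0.02. Insrr, a receptor related to INSR, was at 0.10 to 0.11 and 0.38 to 0.41, and Stc1, related to Stc2, was listed at 0 without bFGF and was at 0.09 to 0.17 with it.

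Of 46 signal transduction genes, which include Irs2, 41 were tested. On day 7 with bFGF 13 were higher and 21 lower, where 38.8% and 39.6% of all tested genes were. Their median was -0.30 beside -0.01 for all genes. On day 1, 3 were higher and 4 lower, against 6.21% and 4.46%. Pik3r3 and Pik3r1, regulatory subunits of PI3 kinase, fell most. On day 7 Pik3r3 was at 12.7 and 15.1 FPKM without bFGF and at 0.54 and 0.60 with it (-4.04, SE 0.26, adjusted p = 3.91e-08). Pik3r1 was at 33.8 and 43.8 FPKM without bFGF and at 2.22 and 2.79 with it (-3.41, SE 0.34, adjusted p = 1.66e-06). Eif4ebp1, a translation repressor that mTOR inactivates, was at 83.2 to 88.5 FPKM without and 387 to 399 with bFGF (2.74, SE 0.13, adjusted p = 4.56e-09). Deptor, an inhibitor of mTOR, was at 0.81 to 1.75 and 3.29 to 5.26 FPKM (2.34, SE 0.16, adjusted p = 5.97e-08). Trib3, a pseudokinase that binds AKT, was at 8.50 to 9.63 and 24.3 to 24.9 FPKM (1.98, SE 0.13, adjusted p = 5.27e-08).

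Of 24 FoxO target genes, which include Irs2, 21 were tested, and on day 7 with bFGF 6 were higher and 9 lower, again against 38.8% and 39.6%, with a median of -0.06 beside -0.01 for all genes. On day 1 none was higher and 8 were lower, against 6.21% and 4.46%. Fbxo32, the atrophy ubiquitin ligase gene, was at 16.7 to 21.5 FPKM without and 0.47 to 1.15 with bFGF on day 7 (-4.02, SE 0.31, adjusted p = 1.65e-07). Tnfsf10, which encodes the death ligand TRAIL, was at 1.30 to 1.39 and 0.16 to 0.27 FPKM (-2.11, SE 0.57, adjusted p = 0.00436). Gadd45a, a stress and growth arrest gene, was at 26.9 to 35.7 FPKM without and 308 to 327 with bFGF (3.88, SE 0.31, adjusted p = 2.20e-07), and Txnip, which restrains glucose uptake, at 291 to 310 and 923 to 994 FPKM (2.22, SE 0.21, adjusted p = 9.38e-07). Klf4, a pluripotency and growth control factor, was at 8.01 to 13.3 and 21.6 to 29.0 FPKM (1.82, SE 0.15, adjusted p = 3.19e-07). Of 5 IGF2 mRNA binding proteins and imprinted neighbours, 2 were tested. Igf2bp1 was at 1.13 to 1.30 FPKM without and 0.16 to 0.25 with bFGF on day 7 (-2.07, SE 0.16, adjusted p = 1.58e-07), and Igf2bp2 at 8.81 to 11.4 and 10.6 to 11.97 FPKM (0.71, SE 0.14, adjusted p = 0.000624).

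The genes whose pattern was most like each member were found by Pearson's r of log2(FPKM + 1) over the 17 libraries, which share their treatments and days, so r is a description only. For Igfbp3 they were Etv4 (0.96), Terf1 (0.96) and Fosl1 (0.96), and Etv4 and Fosl1 encode transcription factors of the ETS and AP-1 families. For Igfbp2 they were Flrt1 (0.99), Zfp185 (0.99) and Slc38a3 (0.99). Lrch3 (0.94), Kmt2a (0.94) and Slc25a27 (0.93) were closest to Igf1r, and Sh3bp5 (0.94), Ptpre (0.93) and again Kmt2a (0.93) to Insr. For Irs2 they were Mtcl1 (0.95), Med13l (0.93) and Cep170b (0.91). For Igfbp7 they were Tns1 (0.95), Foxs1 (0.95) and Col27a1 (0.92), and for Igfbp4 G0s2 (0.97), Acot2 (0.94) and Cdsn (0.92). Igf1 and Igfbp5, both at few counts, shared Mmp12, Crybb2 and Ctsc at 0.89 to 0.97. Igfbp6 had no close match, with Pcp4 (0.81), H1fx (0.71) and Armc10 (0.70).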

How the data were processed

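mNRPC libraries of 4 media on 4 days and a day 0 library were grouped by the treatment and day in the sample labels, 1 library a group. The submitters' processing notes name Bowtie2, RSEM and the build mm10, the study's methods name Bowtie 2 and eXpress, and versions are not given in the sources used here. For each gene the authors deposited an expected count, that is, an estimated number of reads, of which 63.9% to 66.6% were whole numbers in each library, and an FPKM value, which the authors scaled by transcript length and library total and listed from 0.01. A gene that a library does not list was read as 0. Reads shared between transcripts are split by estimate, so expected counts of low genes are uncertain.

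Expected counts were rounded and tested with edgeR 4.0.16 (TMM, glmQLFit and glmQLFTest, Benjamini-Hochberg adjustment, threshold 0.05) in R 4.3.3, over the 11272 genes whose mean FPKM over the 16 cultured libraries reached 1. The model held 8 means of day and bFGF state and a CHIR99021 term, with 7 residual degrees of freedom, and the interaction was added in a further fit. The biological coefficient of variation was 10.0%. Each SE was derived as the size of the log2 fold change over the square root of the F statistic from glmQLFTest. With 1 library a treatment and day, p-values rest on how the CHIR99021 difference varied between days and bFGF states. They do not rest on replicate cultures. Alternatives were other scalings, DESeq2 1.42.0, limma 3.58.1 on log2(FPKM + 1) and log2(FPKM + 0.1), other filters and models, and leaving out libraries. The fit of each comparison was run on simulated data in which few genes changed and the mean levels were otherwise the same in all libraries. That check could not address the scaling, since many genes differ with bFGF in these data. Sequences and positions are from RefSeq (GRCm38.p6). Python 3.11.15 with pandas 2.3.3 and matplotlib 3.10.9 handled tables and plots.

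The members and gene lists were chosen with earlier results of these data known. The rule for naming was to name the 10 members, from each pathway list the 2 largest rises and falls past the threshold on day 7 and on average and the genes of the partner list, and the 3 closest patterns of each member. Of the marker lists, 1 gene is not reported here.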

Additional observations from a re-analysis of the deposited data

Results flagged for a closer look

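For 5 of the 6 tested genes the bFGF effect differed between day 7 and day 1, by the test of the difference itself (edgeR, log2 scale). Of all tested genes, 31.3% were higher and 34.1% lower in this comparison. The difference was -5.04 for Igfbp2 (SE 0.80, adjusted p = 0.000157), from 0.12 on day 1 to -4.92 on day 7. It was 2.11 for Igfbp3 (SE 0.27, adjusted p = 2.92e-05), which was higher with bFGF on both days. For Igfbp6 it was 2.30 (SE 0.42, adjusted p = 0.000423), with a lower level with bFGF on day 1 and a day 7 value at the threshold. For Igf1r it was -0.69 (SE 0.15, adjusted p = 0.00169) and for Insr -0.66 (SE 0.21, adjusted p = 0.0151), where the day 1 values were 0.24 and -0.05 and neither was called. The summed pericyte, smooth muscle and fibroblast markers differed by bFGF on day 7 as given in the report, and their part in these differences was not tested.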

How the results depend on the processing

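The bFGF calls of Igfbp3 on each day, and those of Igfbp2 on days 3, 5 and 7 and of Igf1r and Insr on day 7, kept their direction and their side of the threshold under every alternative run for them. Of 60 member results, 42 passed the threshold under at least 1 setting and were followed, and 18 under none. Apart from fits without a single library, 309 of 358 values of the 42 kept direction and call, 19 lost the call, 14 gained it and 16 turned. Without 1 library, 625 of 672 kept both. In such fits the lone library of a day and bFGF state is assumed to vary like the others.

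On day 5 the bFGF value of Igf1r turned to -0.14 with upper quartile scaling, -0.40 by library totals, -0.42 and -0.44 with limma at pseudocounts 1 and 0.1, and -0.074 over genes of mean FPKM 5 or more. That of Insr turned to -0.11, -0.37, -0.36, -0.39 and -0.045 under the same settings. The averaged bFGF value of Irs2 turned to -0.014 by library totals, and to -0.0098 and -0.016 with limma. That of Igfbp6 turned to 0.44 without day 1. The change of Igf1r with time under bFGF turned to 0.0005 with relative log expression scaling and 0.0003 with DESeq2. The scalings differ by construction in where they set the median gene, and for the rest the cause was not tested. Leaving out single libraries gave day 5 values of -0.15 to 0.22 for Igf1r and -0.28 to 0.38 for Insr, and a day 7 value of -0.21 to 0.091 for Irs2. It gave an averaged value of -0.15 to 0.018 for Igfbp6 and a change with time under bFGF of -0.14 to 0.025 for Igf1r.

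Of all genes, 1203 were called with bFGF on day 1 and 145 to 1784 without single libraries. The lowest counts came without a day 1 library, which leaves fewer samples for that day. The interaction called 78 genes, 244 with DESeq2, 1 and 0 with limma at pseudocounts 1 and 0.1 (1571 had an unadjusted p under 0.05 in edgeR), 224 without the filter, 45 over genes of mean FPKM 5 or more, and 2 to 633 without single libraries. An additive model, which assumes the same bFGF effect on each day, called 38 genes for CHIR99021 in place of 2199 and 0 of the members, and 3 of the members for averaged bFGF in place of 5. The members called were 1 on day 1 over genes of mean FPKM 5 or more, where Igfbp6 is not tested, and 9 for day 7 against day 1 without bFGF when no filter was used, since the 4 low members are then tested. Without single libraries they were 1 to 2 on day 1, 2 to 4 on day 3 and 3 to 5 averaged. By CPM (expected counts scaled by the library total) in place of FPKM, the highest library of each of the 10 genes was unchanged. No paired analysis by replicate number was possible because each treatment and day has 1 library, and the day was a term of each fit instead. Igf1 and Igfbp5 rest on at most 24 and 32 counts a library, so their differences are limited by depth.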
